A study of Homo sapiens with 4 samples.

Results

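The AP-1, MYC and immediate early genes examined in H1975 cells were FOS, FOSL1, FOSL2, JUN, JUNB, JUND, MYC, EGR1 and IER2. Each was given as a window on the hg19 genome, and a m6A peak was taken as a member when its summit lay in the window. By this rule, which uses position and no measured value, 4 of 9441 peaks in control cells and 5 of 12252 peaks in METTL3 knockdown cells were members. H1975 is an established human lung adenocarcinoma (LUAD) cell line. The 4 samples were Input and MeRIP libraries of cells given a control shRNA (NC-sh) and of cells given a METTL3 shRNA (METTL3-sh), all from lentivirus-treated cells, with 48 h stated for the knockdown. In MeRIP, RNA fragments are pulled down with an antibody to m6A and sequenced, and the Input is the RNA before pull-down. The shRNA lowers METTL3, the catalytic subunit of the m6A writer complex, rather than deleting it, and the study's supplement lists a target of 21 bases for it, written here in lower case as no part is marked.
METTL3 shRNA target: gctgcacttcagacgaattat

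Each condition had 1 MeRIP library, so the differences below describe these libraries and were not tested between conditions. Every peak name begins with H1299, another LUAD line, although the labels give H1975. Total depth is not known. The reads at a summit had a median over all peaks of 169 for NC-sh and 132 for METTL3-sh, from lists of unequal size. Over the 6863 pairs in which a peak of each list overlapped only the other, the median ratio of reads, METTL3-sh over NC-sh, was 1.10. The 2 medians therefore do not rank the libraries by depth, and reads below are not adjusted for it. The intervals given with reads are exact 95% Poisson intervals that cover counting error only. Fold enrichment is the MeRIP signal (pileup) at the summit over the signal expected locally, with 1 added to each. The local expectation is taken here from those deposited values and is in the same scaled reads as the pileup. It was not adjusted for depth between the libraries. No interval was computed for it or for fold enrichment, so differences in either are given without their counting error. The lowest fold enrichment in both lists was 6, so a gene without a listed peak may still carry a weaker one.

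AP-1 is a family of transcription factors that bind DNA as dimers of a FOS protein (FOS, FOSL1, FOSL2) with a JUN protein (JUN, JUNB, JUND), or of JUN proteins alone. MYC is a transcription factor that acts as a dimer with MAX and drives growth genes. FOS, JUNB, EGR1, IER2 and several of the others are immediate early genes, which growth factor signalling switches on without new protein synthesis, and many of their mRNAs are short-lived. m6A is one of the marks that can hasten mRNA decay, and it is commonly found near stop codons and in 3′UTRs.

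Of the 9 genes, FOSL2, JUN and MYC had a peak in both libraries, EGR1 in NC-sh only, and FOS and IER2 in METTL3-sh only. FOSL1, JUNB and JUND had none in either list. No window held more than 1 peak per library. The 3 shared peaks were 75% of the 4 in NC-sh (exact binomial 95% CI 19.4 to 99.4%) and 60% of the 5 in METTL3-sh (14.7 to 94.7%). Over all peaks, 76.2% of those in NC-sh overlapped a METTL3-sh peak by at least 1 bp, and 58.6% of those in METTL3-sh overlapped an NC-sh peak. With so few members, their shares could not be told apart from those of all peaks.

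**Figure D1:**
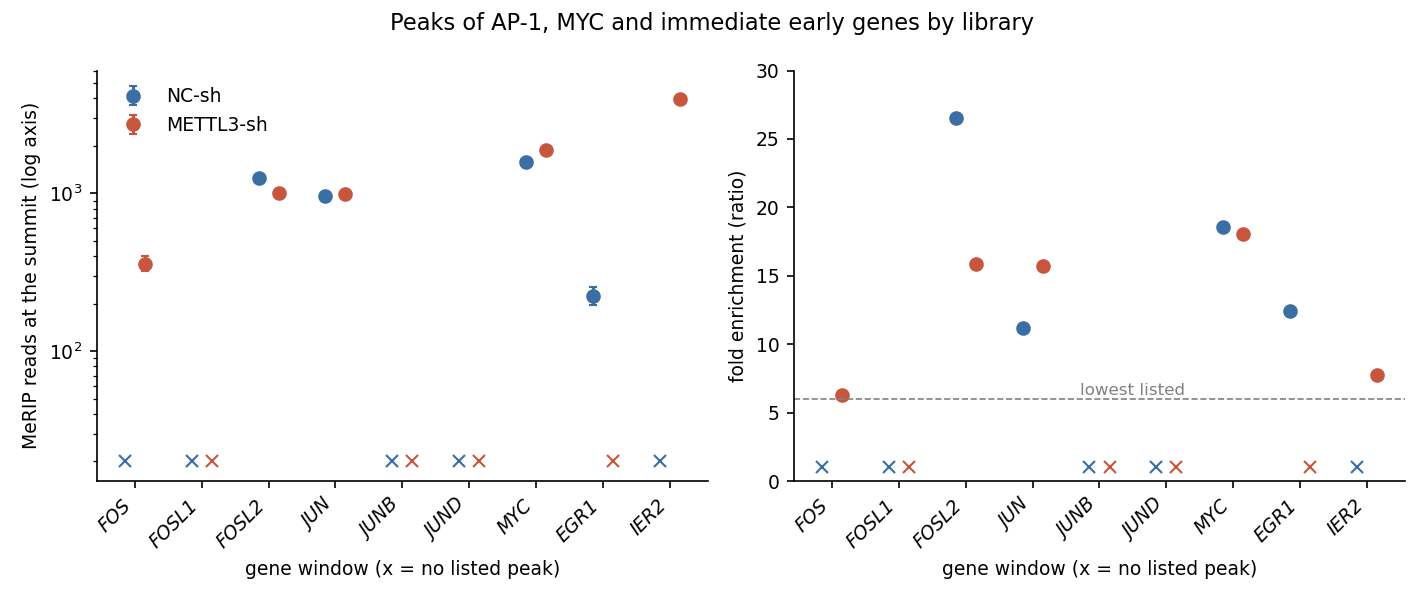
MeRIP reads at the summit (left, log axis, with exact 95% Poisson intervals) and fold enrichment (right, linear axis) of the peak in each gene window, for NC-sh (blue) and METTL3-sh (red). A cross at the foot of a panel marks a library with no listed peak and has no value, and the dashed line is the lowest fold enrichment in the lists. Reads ran from 225 at EGR1 to 3967 at IER2, whereas fold enrichment was highest at FOSL2 in NC-sh, at 26.5.

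The −log10 q of the member peaks, as the peak caller gave it within each library, ran from 54.5 at EGR1 and 56.8 at FOS to 582 at MYC and 735 at IER2 in METTL3-sh. All 9 member peaks, from 6 genes, lay above the median of their own list in reads at the summit and in local expectation. The local expectation was 5.0 at EGR1, between 14.4 and 36.8 at FOS, FOSL2, JUN and MYC, and 186 at IER2, against a list median of 4.0 for NC-sh and 3.0 for METTL3-sh. The local expectation of EGR1 was close to the middle of its list, above 57.4% of the NC-sh peaks, and that of the other members was above 81.5% or more of their lists. The Input libraries were not analysed here, so whether these ranks follow transcript amount was not tested. As the RNA was from bulk cells, a difference in the number of cells with a transcript and in its amount per cell cannot be told apart.

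**Figure D2:**
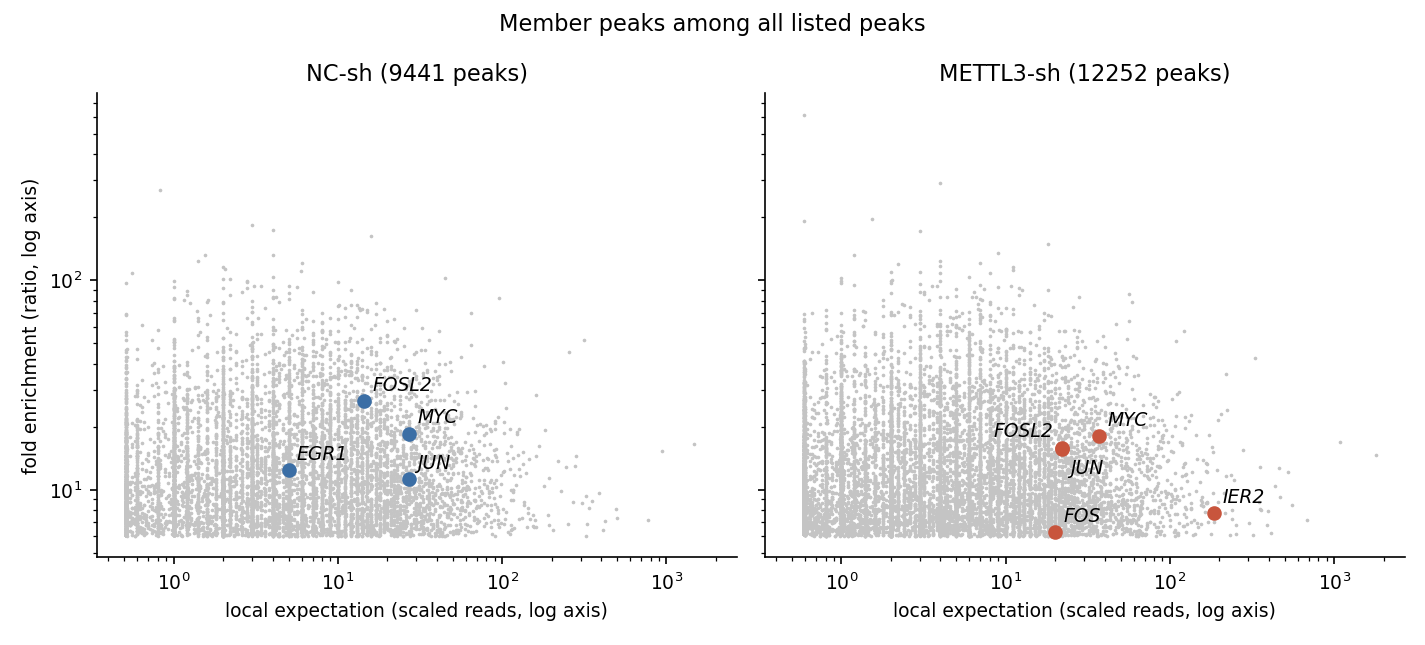
Fold enrichment against local expectation (both log axes) for every peak of NC-sh (left, 9441 grey points) and METTL3-sh (right, 12252 grey points), with the member peaks in colour. FOS lies at the lower edge set by the limit on fold enrichment, IER2 far to the right at an expectation of 186, and FOSL2 and JUN share 1 place in METTL3-sh.

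Among the FOS proteins, FOSL2 had the broadest member peak. FOSL2 encodes a FOS family member that lacks the strong activation region of FOS. Its peak was at chr2:28635166-28636234 in NC-sh (1069 bp) and at chr2:28635195-28636235 in METTL3-sh (1041 bp), each longer than 93.4% of the peaks of its list. The summit held 1246 reads in NC-sh (1178 to 1317) and 1002 in METTL3-sh (941 to 1066). Fold enrichment was 26.5 and 15.9, which was 1.67 times lower in METTL3-sh, or -0.74 on the log2 scale. FOSL2 was the only one of the 3 paired members past a fold of 1.5. Over all 6863 pairs in which each peak overlapped no other, 12.8% were at least 1.5 times lower in METTL3-sh and 22.9% at least 1.5 times higher.

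The lower fold enrichment of FOSL2 came with a change in both of its terms. Reads in METTL3-sh were 0.804 times those in NC-sh (95% CI 0.739 to 0.875, counting error only), whereas the median of all pairs was 1.10. The local expectation of FOSL2 was 14.4 with the control shRNA and 22.0 with METTL3-sh. On the log2 scale with 1 added, pileup differed by -0.16 and local expectation by 0.58. Relative to the medians of all pairs, 0.28 for pileup and 0.11 for local expectation, these were -0.44 and 0.47. Both terms thus differed by a similar amount relative to the medians, whereas without this adjustment the local expectation differed more. The summits lay 145 bp apart, a distance reached by 4.9% of all pairs.

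FOS, the founding member of the family and a classical serum-induced gene, had a peak in METTL3-sh alone, at chr14:75747815-75748052. This peak was 238 bp long, shorter than most in its list, and held 359 reads (323 to 398). Its fold enrichment of 6.26 exceeded only 4.8% of the list, and at its local expectation of 20 a summit needed 344 reads to reach the limit of 6. The peak was thus listed by a margin of 15 reads, which is within the counting error of its own reads. Among the 593 METTL3-sh peaks with a fold enrichment up to that of FOS, 25.8% overlapped an NC-sh peak. In NC-sh, 382 reads would have been needed at the same local expectation. No peak was listed there within 187 kb on either side of the window, and 3 peak numbers were missing between the flanking peaks.

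FOSL1, whose product is often abundant in RAS-driven tumours, had no listed peak in its window in either library. In METTL3-sh the peaks on either side of the window had the consecutive numbers 3011 and 3012, so no numbered peak had been removed between them. Over the whole METTL3-sh list, 62.2% of neighbouring peaks had consecutive numbers, and in NC-sh this was 64.1%. In NC-sh, 3 numbers were missing between the peaks flanking FOSL1, over 138 kb.

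The peak nearest to a window from outside lay beside that of FOSL1, on the side of lower coordinates. It was called only in METTL3-sh, at chr11:65658398-65659118, with its summit 567 bp beyond the window. It held 7836 reads (7663 to 8011), more than 99.7% of the peaks in the list, at a fold enrichment of 8.07 and a local expectation of 352. In RefSeq's GRCh38.p14 gene order, CCDC85B is the protein-coding neighbour of FOSL1 on the side of this peak, and C11orf68 on the other side. The peak was not assigned to any of these genes, as no hg19 annotation was used here.

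Among the JUN proteins, only JUN had a listed peak. JUN encodes the partner of FOS in the classical AP-1 dimer, from a gene without introns. The peak was at chr1:59247289-59247706 in NC-sh and at chr1:59247289-59247960 in METTL3-sh, with the same start and summits 7 bp apart. It was 254 bp longer in METTL3-sh, on the side towards the 5′ end of the transcript, and 7.9% of all pairs lengthened at least as much. The summit held 957 reads in NC-sh (897 to 1020) and 992 in METTL3-sh (931 to 1056), a ratio of 1.04 (95% CI 0.948 to 1.13). This interval, which covers counting error only, holds both 1 and the median ratio of 1.10 over all pairs.

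With a control shRNA the fold enrichment of JUN was 11.2, and with METTL3-sh 15.7, a ratio of 1.40 that stayed under the fold of 1.5. Its log2 difference of 0.49 combined a pileup difference of 0.20 with a local expectation that differed by -0.28 on the same scale, or -0.08 and -0.39 relative to the medians of all pairs. Among the 3 paired genes, JUN alone had a lower local expectation in METTL3-sh, 22.0 against 27.0. Counting error was not computed for the local expectation. JUN and FOSL2 were far apart in fold enrichment in NC-sh and close in METTL3-sh, at 15.7 and 15.9.

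JUNB and JUND, which encode the AP-1 partners that can oppose or replace JUN, had no listed peak in either library. At JUNB, the flanking METTL3-sh peaks had the consecutive numbers 8888 and 8889 over 143 kb. As for FOSL1, no peak number was therefore missing at JUNB in that library. In NC-sh, 3 numbers were missing over 163 kb around JUNB. At JUND, 1 number was missing in NC-sh and 4 in METTL3-sh, over 98.1 kb and 195 kb, so a removed peak may have stood at JUND or elsewhere in those stretches.

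Among the 3 paired genes, MYC had the closest peak ends, summits and fold enrichments, whereas JUN was closest in reads. The MYC peaks lay at chr8:128752751-128753519 in NC-sh and chr8:128752752-128753517 in METTL3-sh, so the ends differed by 1 and 2 bp and the summits by 2 bp. Only 1.2% of all pairs had ends that lay as close in sum. The summit held 1588 reads in NC-sh (1511 to 1668) and 1875 in METTL3-sh (1791 to 1962), a ratio of 1.18 (95% CI 1.10 to 1.26), next to a median ratio of 1.10 over all pairs. Fold enrichment was 18.6 and 18.1, a log2 difference of -0.04, since pileup and local expectation were both higher in METTL3-sh, by 0.39 and 0.43. The fold enrichment of MYC thus stood above 81.3% of the NC-sh list and 81.2% of the METTL3-sh list.

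**Figure D3:**
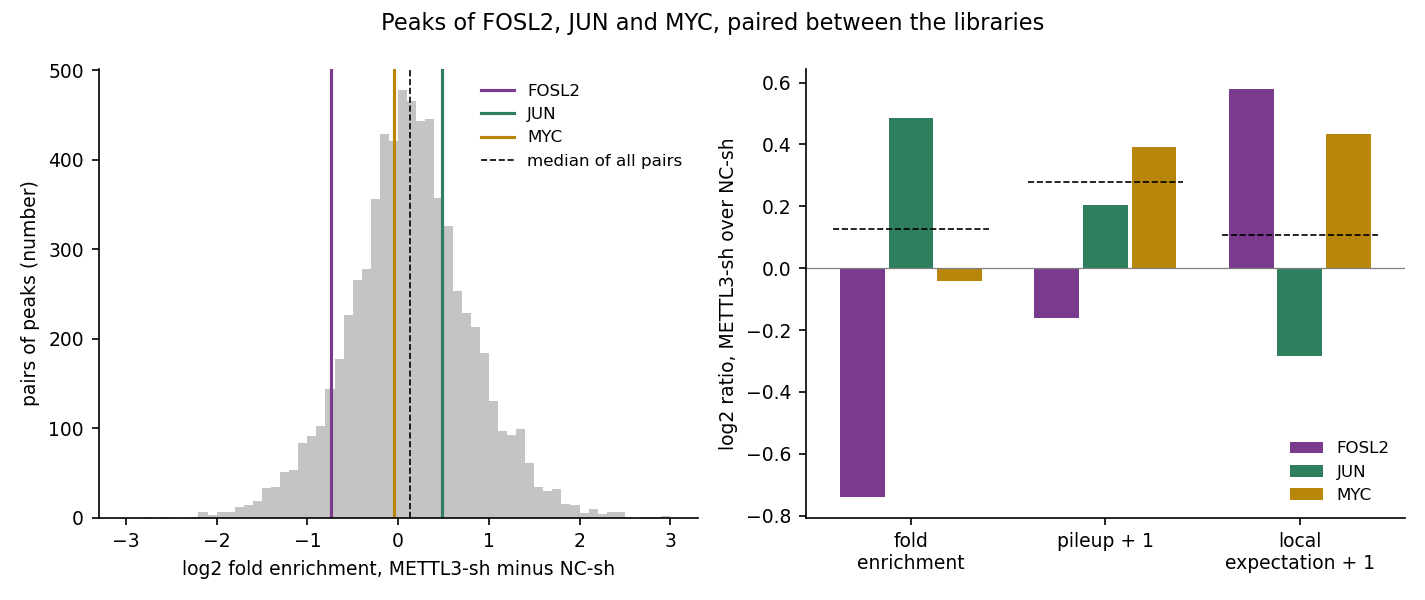
Left, the number of pairs by log2 fold enrichment in METTL3-sh minus NC-sh, with FOSL2 (-0.74), MYC (-0.04) and JUN (0.49) as lines and the median of all 6863 pairs (0.13) dashed, 1 pair lying outside the axis. Right, METTL3-sh against NC-sh on the log2 scale for fold enrichment, pileup plus 1 and local expectation plus 1 of the 3 genes, with the medians of all pairs dashed. FOSL2 and JUN differ in opposite directions in fold enrichment, and in the local expectation the opposite way round, without any interval on these values.

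EGR1 and IER2 were each listed in 1 library. EGR1 encodes a zinc finger transcription factor induced by growth factors, and its peak was in NC-sh at chr5:137803590-137803988. It was 399 bp long and held 225 reads (197 to 256), with a fold enrichment of 12.4 and a local expectation of 5.0. With that expectation taken as exact, 107 reads were needed, so the peak passed the limit by 118 reads. The error of so small an expectation was not computed. Of the 1019 NC-sh peaks whose reads and fold enrichment were both within 1.5 times of those of EGR1, 885 overlapped a METTL3-sh peak (86.8%), and EGR1 was 1 of the 134 that did not. In METTL3-sh, 97 reads would have been needed at the same local expectation. The METTL3-sh peaks flanking EGR1 left 3 numbers missing over 115 kb, so a peak below the limit may have been numbered at EGR1 or elsewhere in that stretch. METTL3-sh values at EGR1 are not in the list, and whether reads were lower or the local expectation higher was not tested.

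IER2 encodes a nuclear protein of the immediate early response, and its peak was the deepest of all members. It was listed in METTL3-sh alone, at chr19:13264229-13265042, with 814 bp and 3967 reads, which is above 98.9% of the list. Its fold enrichment of 7.72 was above only 28.2% of the list, since the local expectation of 186 was above 99.7%. At that expectation 3084 reads were needed, so the peak passed the limit by 883 reads. In NC-sh, 1 number was missing between the peaks on either side of IER2, over 163 kb, and 3426 reads would have been needed there. Of the 137 METTL3-sh peaks with at least as many reads, 94.9% overlapped an NC-sh peak. Of the 9 among them with a fold enrichment no higher than that of IER2, 4 did.

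The 3 members listed in 1 library thus differed in their distance from the limit. FOS was at the limit, IER2 was above it with a low fold enrichment and many reads, and EGR1 was above it with a fold enrichment over the median of its list. Of the 9 combinations of gene and library with no listed peak, 2 were flanked by consecutive numbers, FOSL1 and JUNB in METTL3-sh. In the other 7 at least 1 number was missing, over stretches of 98.1 to 382 kb. A peak with a fold enrichment under 6 may have stood at the gene or elsewhere in its stretch.

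All 9 summits, from 6 genes, lay past the middle of their window in the direction of transcription. The same share over other genes was not computed. Summits were at 55.3% of the window's length for EGR1, 61.9% and 62.0% for JUN and 71.7% for IER2. Those of FOS were at 72.9%, of FOSL2 at 78.6% and 79.2%, and of MYC at 90.6% in both libraries. The windows need not begin and end with the gene, so these values place a peak within a window and not within a transcript. A peak covered 4.0 to 16.8% of its window. The exon, coding region or 3′UTR of a peak was not assigned.

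**Figure D4:**
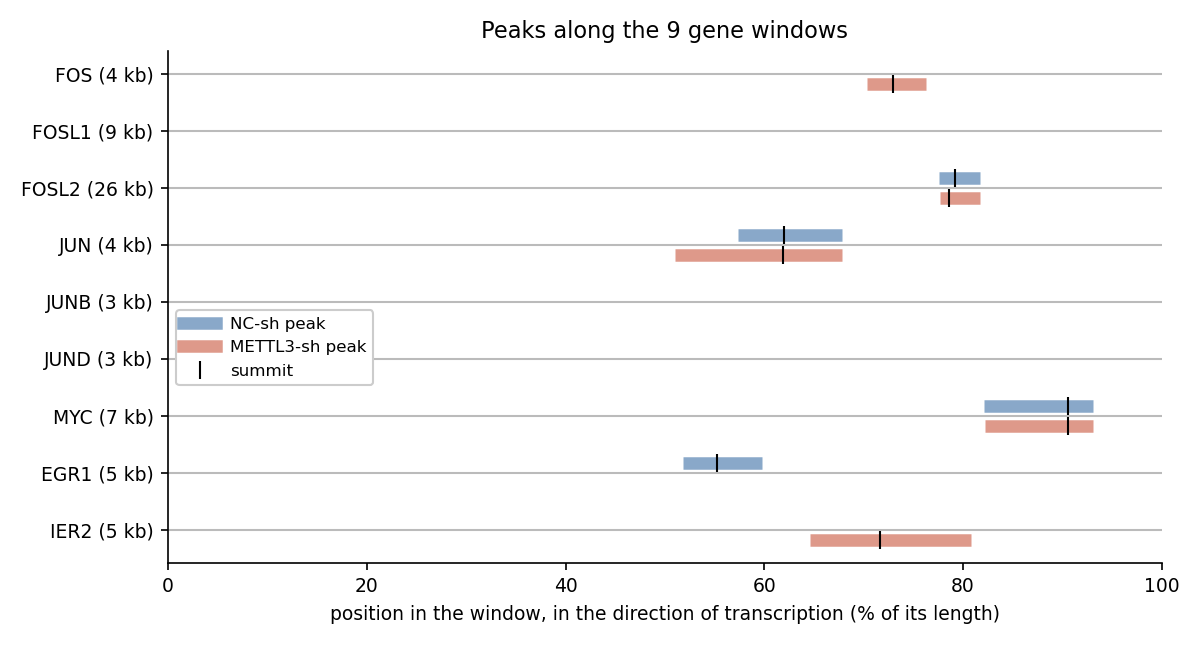
Peaks (bars) and summits (ticks) of NC-sh (blue) and METTL3-sh (red) along each gene window, drawn from the 5′ to the 3′ side as a percent of the window's length, which is given in kb beside each gene. All bars lie beyond 50%, the paired peaks of MYC cover the same stretch, and the JUN peak reaches further to the 5′ side in METTL3-sh.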

How the data were processed

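The submitters' processing notes name bcl2fastq, TopHat2 2.0.13, MACS2 2.1.0.20151222 and the build hg19, with no role or parameter. The last peak on chromosome 1 ends at 249212654. Each MeRIP library has 1 peak list from the authors. Its pileup, as deposited, is a signal in scaled reads at the summit. Its fold enrichment is, as deposited, a ratio (pileup over local expectation, pseudocount 1), and −log10 p and q are the authors' caller output.

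Reads were pileup divided by its step (0.327 in NC-sh, 0.364 in METTL3-sh), and all 21693 peaks gave whole reads within 0.1. The local expectation was (pileup + 1)/fold enrichment − 1. As a check, a Poisson tail lay within 0.02 of the deposited −log10 p for 89.5% and 90.2% of peaks. A pair is a peak of each list that overlapped only the other by at least 1 bp. Peak numbers follow position, so numbers missing between neighbours were taken to mark removed peaks. That such peaks had a low fold enrichment is inferred from the lists, as the notes state no filter. Strand was from RefSeq's promoter table for 7 genes and from general knowledge for MYC and FOSL1. All 9 genes are named, and a fold of 1.5 counted as past the threshold. The members and lists were chosen with earlier results of these data known. A wider list of immediate early and MYC partner genes was not located, as no hg19 annotation was used here. Comparisons with peaks like EGR1, FOS or IER2 were chosen after their values were seen. Pairing, window assignment and the pileup step were tested on simulated data. The Input libraries were not analysed here, so the local expectation was not compared with their coverage. Python 3.11.15, numpy 2.4.6, pandas 2.3.3, scipy 1.17.1 and matplotlib 3.10.9 were used.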

Additional observations from a re-analysis of the deposited data

How the results depend on the processing

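With 1 library per condition no result could be set against replicate error, and no test was made. No paired analysis was possible because conditions were represented by lone MeRIP libraries. The 4 NC-sh and 5 METTL3-sh peaks stayed when any overlap with the window, a −log10 q at or above the median of both lists, or equal numbers of peaks were used. Windows widened by 1 kb added the peak beside FOSL1, for 6 in METTL3-sh. At a fold enrichment of at least 12, NC-sh lost JUN and METTL3-sh lost FOS and IER2, which left 3 peaks in each and 2 shared. All 9 peak midpoints also lay past the middle of the window, as they had to with every peak wholly beyond it.

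The log2 difference of FOSL2 (-0.74 in fold enrichment) was -0.16 in pileup, -0.31 in reads, -0.51 in −log10 q and -0.87 relative to the median of all pairs. That of JUN (0.49) was 0.20 in pileup, 0.052 in reads, 0.48 in −log10 q and 0.36 relative to the median. That of MYC (-0.04) was 0.39 in pileup, 0.24 in reads, 0.37 in −log10 q and -0.17 relative to the median. The number of members at least 1.5 times lower in METTL3-sh, 1 in fold enrichment, was thus 0 in pileup, reads and −log10 q. It was also 0 at a fold of 2, and 0 with pairs by summits within 100 bp, where FOSL2 formed no pair and 2 peaks remained shared. Fold enrichment divides by the local expectation, which pileup and reads do not. Requiring 50% of both peaks to overlap changed none of these values.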

Other observations

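A peak called only in METTL3-sh lay upstream of MYC at chr8:128742830-128743035, with its summit 4079 bp outside the window. It held 35 reads (exact 95% Poisson interval 24.4 to 48.7, counting error only), more than 12% of the peaks in its list, at a fold enrichment of 8.64. In NC-sh, the nearest peak on that side of MYC was 2296 kb from the window.

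Next to JUN, the nearest METTL3-sh peak on the side of higher coordinates was 31.9 kb from the window, and the nearest NC-sh peak was 2304 kb away. On the other side of JUN the nearest peaks were at 95.1 kb in both libraries. Around IER2, the nearest peak on the side of lower coordinates was at 14.0 kb in NC-sh and at 176 kb in METTL3-sh.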
